A study of Mus musculus with 8 samples.

Results

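Sox10, Olig1, Olig2, Nkx2-2, Myrf, Gpr17, Pdgfra and Cspg4, 8 genes used to follow the oligodendrocyte lineage from precursor to myelinating cell, were examined in ribosome-bound and whole-tissue RNA of the mouse ventral pallidum (VP). They were chosen by name as known genes of the lineage, and each had 1 entry among the 14353 genes of the deposited table. All 8 passed the filter on low values (over 1 CPM, read counts scaled to a common library total, in at least 3 libraries), as did 14249 genes in all. Nkx2-2 passed through its INPUT libraries alone.

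Oligodendrocyte precursor cells divide and persist in the adult brain, and some of them mature into the cells that wrap axons in myelin. PDGFRA, a receptor for platelet-derived growth factor, and CSPG4, the proteoglycan NG2, mark the precursor surface. SOX10, OLIG1 and OLIG2 are transcription factors used through the lineage, while GPR17, NKX2-2 and MYRF accompany commitment and the switch to myelin production. Pdgfra and Cspg4 are also known outside the lineage, Pdgfra in fibroblasts and Cspg4 in pericytes of small vessels.

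The mice carried vGluT2-Cre (homozygous) and the RiboTag allele of Rpl22 (heterozygous), in which Cre switches on a hemagglutinin (HA) tag on a ribosomal protein. The tag stays on in every cell that has expressed vGluT2 and in its progeny. No treatment was given. TRAP libraries hold RNA pulled down with the HA antibody, labelled as glutamatergic neurons, and INPUT libraries hold RNA of the lysate before the pull-down, labelled as neurons and glia, although the study's methods speak of an unbound fraction where they describe sequencing. Each of 4 pools gave 1 library per fraction (VP1.6, then VP2.2 and VP2.6, and VP2.11), which makes 8 libraries from 38 mice (15 male, 23 female), with 7 to 11 mice per pool. Mice of VP1.6 were 9 to 12 weeks old and those of the other pools 10 to 16 weeks. All groups shared the genotype, so there was no untagged control, and tissue punches may include neighbouring striatum.

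The comparison of TRAP with INPUT asks which transcripts are translated in the tagged neurons. Slc17a6, which encodes vGluT2, stood at 143 ± 13.6 CPM in TRAP and 25.9 ± 10.3 CPM in INPUT (SD, n = 4 each), a log2 fold change of 2.55 (limma SE 0.25, adjusted p = 8.8e-05; with the pool as a block SE 0.24, adjusted p = 7.3e-06), higher in 4 of 4 pools. Values are the log2 CPM deposited by the authors, and library sums ran from 855077 to 1109075 CPM. Read depth could be estimated for 2 pools from the whole-read pattern of TRAP against INPUT ratios. It gave 13.1 M reads in TRAP and 39.5 M in INPUT of VP2.2, and 12.8 M and 25.4 M in VP2.6. Depth of VP1.6 and VP2.11 is unknown. In 99.99% of genes a single value lay between TRAP and INPUT in all 4 pools, against 47.8 to 55.7% when TRAP and INPUT of different pools were matched. Differences within a pool are therefore the measurement here, and the level of 1 library is less certain. For the same reason, TRAP and INPUT libraries failing to overlap is the same observation as 4 pools moving one way (0 genes differed), and the exact test of 4 against 4 libraries adds nothing to it.

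Of the 8 lineage genes, 6 fell in TRAP, 1 rose and 1 was not called, both without and with the pool as a replicate block (limma, Benjamini-Hochberg adjusted p below 0.05). Over all genes tested, 24.8% were called lower and 23.2% higher without the block, and 16.8% and 15.4% with it. The 8 genes kept a median 35.0% of their INPUT level, a median log2 fold change of -1.51, where the median over all genes was -0.05. Nkx2-2 kept the smallest share, 8.03%, with TRAP levels below the filter on low values. Cspg4 rose 3.94-fold, while Pdgfra, the other classical precursor marker, kept 82.4% with no call. TRAP is set against INPUT of the same pool, so a fall measures neither cell number nor RNA per cell.

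Upstream sequence is given for the genes at the ends of this order, since the genes do not move as one. RefSeq promoter entries (build GRCm38.p6) were at hand for 4 of the 8 genes. The first 150 of the 250 bases that precede the RefSeq start are written 5′ to 3′ on the gene's strand, with E-box letters (CANNTG, the letters that basic helix-loop-helix factors such as OLIG2 read) in capitals. The Nkx2-2 window is chr2:147186503-147186652, minus strand, and that of Cspg4 is chr9:56864854-56865003, plus strand. The Nkx2-2 window lies inside the annotated span of the gene, chr2:147177546-147194243. It precedes the RefSeq start but not the start of that annotation.
Nkx2-2: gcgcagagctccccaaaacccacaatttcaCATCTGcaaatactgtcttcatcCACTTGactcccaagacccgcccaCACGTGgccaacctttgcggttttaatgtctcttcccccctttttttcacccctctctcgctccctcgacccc
Cspg4: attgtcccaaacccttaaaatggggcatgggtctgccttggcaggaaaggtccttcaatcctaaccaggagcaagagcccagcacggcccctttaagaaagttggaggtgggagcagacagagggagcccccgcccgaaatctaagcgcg
The Nkx2-2 window held 3 matches to CANNTG, on either strand, and the Cspg4 window 0. Of the other windows, that of Olig2, which fell, also held 0 and that of Pdgfra held 1. Such a match was present in 49.3% of 32851 RefSeq windows of the same length. ACAAAG and ACAATG, letters read by SOX factors, were found in 10.4% and 6.66% of all windows and in neither the Nkx2-2 nor the Cspg4 window. Any link of such letters to the TRAP to INPUT change was not tested.

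**Figure D1:**
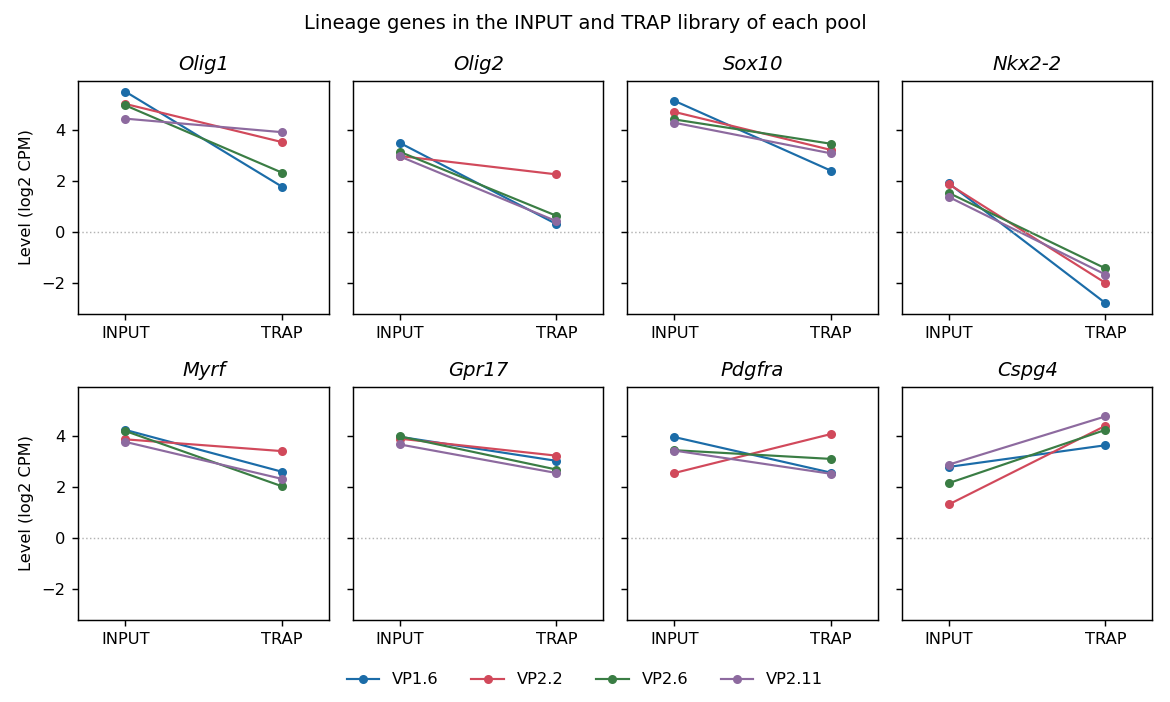
Deposited level (log2 CPM, vertical axis) of each lineage gene in the INPUT and TRAP library of 4 pools, 1 coloured line per pool. TRAP lies below INPUT in every pool for Olig1, Olig2, Sox10, Nkx2-2, Myrf and Gpr17, above it in every pool for Cspg4, and for Pdgfra below it in 3 pools and above it in VP2.2.

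Among the lineage-wide transcription factors, Olig2 (ENSMUSG00000039830, GRCm38 chr16:91225457-91228677, plus strand) had the largest mean fall, although without VP2.11 Olig1 fell further (-2.62, against -2.14 for Olig2). OLIG2 is a basic helix-loop-helix factor that specifies the lineage. Its TRAP levels were 0.31, 2.26, 0.63 and 0.42 log2 CPM for VP1.6, VP2.2, VP2.6 and then VP2.11, and its INPUT levels were 3.49, 2.98, 3.14 and 2.96. TRAP of VP2.2 stood above the other 3 TRAP libraries, and none of them reached the lowest INPUT library. The log2 fold change was -2.24 (SE 0.40, adjusted p = 0.0014 without the block; SE 0.44, adjusted p = 0.0018 with it), and 21.2% of the INPUT level was kept, from 11% in VP1.6 to 60.7% in VP2.2.

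Olig1 (ENSMUSG00000046160, chr16:91269772-91271933, plus strand) encodes the sister factor and starts 41094 bases after the end of Olig2. Its TRAP levels were 1.77, 3.52, 2.32 and 3.91 log2 CPM in the same pool order, against 5.50, 5.02, 4.96 and 4.44 in INPUT. All 4 pools moved down, but VP1.6 kept 7.55% and VP2.11 kept 69.3%, the widest spread of any of the 8 genes (SD 1.39 on the log2 scale). The mean change was -2.10 (SE 0.43, adjusted p = 0.0028; with the block SE 0.40, adjusted p = 0.0015), and 23.4% was kept. Although Olig1 and Olig2 are neighbours with like mean shares, they did not follow each other from pool to pool. Olig1 minus Olig2 was 0.14 ± 1.28 (SD over 4 pools, log2 difference), lying between -0.78 and 2.01, and Olig1 was the lower of the pair in 3 of 4 pools. A noncoding gene on the other strand, Gm15966, shares 157 exon bases with Olig1.

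Sox10 (ENSMUSG00000033006, chr15:79154908-79165240, minus strand) encodes an HMG-box factor that drives lineage and myelin genes. Levels in TRAP were 2.40, 3.21, 3.46 and 3.08 log2 CPM and in INPUT 5.14, 4.70, 4.41 and 4.28. VP1.6 had the largest difference within a pool (-2.74), with the highest INPUT and the lowest TRAP level. TRAP and INPUT deviate in opposite directions within a pool in these deposited values, so these extremes are not separate observations. TRAP and INPUT did not overlap. The change was -1.60 (SE 0.26, adjusted p = 0.00081; with the block SE 0.31, adjusted p = 0.0017). Sox10 kept 33.1% of its INPUT level, from 15% in VP1.6 to 51.6% in VP2.6.

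Nkx2-2 (ENSMUSG00000027434, chr2:147177546-147194243, minus strand), a homeobox factor that represses Pdgfra and promotes differentiation, showed the deepest fall on log2 CPM. On log2(CPM + 1), which shrinks low levels, Nkx2-2 changed by -1.72, less than Olig1 (-1.93) and Olig2 (-1.73). In TRAP it stood at -2.79, -2.0, -1.43 and -1.67 log2 CPM, and in INPUT at 1.90, 1.87, 1.53 and 1.37. Its highest TRAP level was 0.371 CPM, below the 1 CPM of the filter in each of the 4 TRAP libraries. The change was -3.64 (SE 0.44, adjusted p = 0.00019; with the block SE 0.74, adjusted p = 0.0022). The share kept was 3.88% in VP1.6, 6.84% in VP2.2, 12.9% in VP2.6 and 12.2% in VP2.11. Few reads lie behind the TRAP values. The ratio in VP2.2 is that of 2 TRAP to 110 INPUT reads (or a common odd multiple of both), with a 95% exact interval of 0.658 to 20.3% on the share at those counts. In VP2.6 it is 4 to 69 reads, with an interval of 3.05 to 30.8%. These intervals cover counting error only. An antisense gene, Nkx2-2os, shares 278 exon bases with Nkx2-2, and whether reads were counted by strand is not given in the sources used here.

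Myrf (ENSMUSG00000036098, chr19:10208272-10240748, minus strand) encodes the membrane-bound factor that turns on myelin genes. Levels were 2.6, 3.41, 2.03 and 2.32 log2 CPM in TRAP and 4.24, 3.87, 4.2 and 3.77 in INPUT. VP2.2 was again the pool with the least fall, keeping 72.6%, while the other pools kept 22.3 to 36.6%. The change was -1.43 (SE 0.28, adjusted p = 0.0022; with the block SE 0.32, adjusted p = 0.0041), a mean share of 37.1%.

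Gpr17 (ENSMUSG00000052229, chr18:31942997-31949636, minus strand), a G protein-coupled receptor of newly committed cells, fell by the smallest step among the called genes and with the least spread. Its TRAP levels were 3.03, 3.23, 2.69 and 2.55 log2 CPM, and its INPUT levels were 3.97, 3.90, 3.99 and 3.67. The share kept lay between 40.6 and 63.1% (SD 0.27 on the log2 scale, the smallest of the 8). The change was -1.01 (SE 0.19, adjusted p = 0.0019; with the block SE 0.28, adjusted p = 0.014). With the block, the call was lost without VP1.6 (adjusted p = 0.056) and without VP2.6 (adjusted p = 0.091). Gpr17 lies wholly within Lims2 on the opposite strand and shares 188 exon bases with it, and Lims2 had a log2 fold change of -3.07, so part of the reads at this locus cannot be assigned if strand was not used.

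Pdgfra (ENSMUSG00000029231, chr5:75152292-75198215, plus strand) had TRAP levels of 2.56, 4.08, 3.10 and 2.52 log2 CPM and INPUT levels of 3.96, 2.55, 3.44 and 3.43. The groups overlapped. It was lower in TRAP in 3 pools, keeping 38% in VP1.6, 78.9% in VP2.6 and 53.2% in VP2.11, and 2.88-fold higher in VP2.2. The higher TRAP value in VP2.2 rests on at least 390 TRAP and 409 INPUT reads, with a counting interval of 250.4 to 332% on the share. The lower value in VP2.6 rests on at least 14 and 36 reads, and at those counts the interval of 38.5 to 147% spans no change. Those reads amount to 1.42 CPM in INPUT, where the deposited level is 10.9 CPM. The true counts may be larger and the interval narrower, so it does not settle VP2.6. The mean change was -0.28 (SE 0.38, adjusted p = 0.57; with the block SE 0.41, adjusted p = 0.63), and the exact permutation p over 4 against 4 libraries was 0.54. Without VP2.2 the change was -0.88 and passed without the block (adjusted p = 0.023) but not with it (adjusted p = 0.068). Without VP1.6 it was 0.092. Gm42802 and Gm42803, on the other strand, share 456 and 166 exon bases with Pdgfra.

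Cspg4 (ENSMUSG00000032911, chr9:56865033-56899870, plus strand) was the 1 lineage gene that rose. In TRAP it stood at 3.64, 4.40, 4.24 and 4.77 log2 CPM, and in INPUT at 2.79, 1.32, 2.15 and 2.88. All 4 TRAP libraries lay above all 4 INPUT libraries, a pattern shared by 23.3% of all genes tested. The rise was 1.80-fold in VP1.6, 8.47-fold in VP2.2, 4.25-fold in VP2.6 and 3.71-fold in VP2.11. The mean change was 1.98 (SE 0.36, adjusted p = 0.0014; with the block SE 0.35, adjusted p = 0.00088). At least 1062 TRAP and 379 INPUT reads lie behind VP2.2 and at least 238 and 111 behind VP2.6, so the direction in these pools is larger than counting error, with intervals of 753 to 955% and 338.6 to 538% of the INPUT level. For INPUT of VP2.2 those reads amount to at least 9.60 CPM, where the deposited level is 2.5 CPM, so the ratio within the pool is the firmer value.

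For each gene called, all 4 pools moved one way, for which the smallest exact sign-flip p over 4 pools is 0.125 (two-sided), above 0.05. The exact permutation p of 4 against 4 libraries was 0.029, the smallest it can give. Over all genes tested, 24.4% had every TRAP library below every INPUT library.

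**Figure D2:**
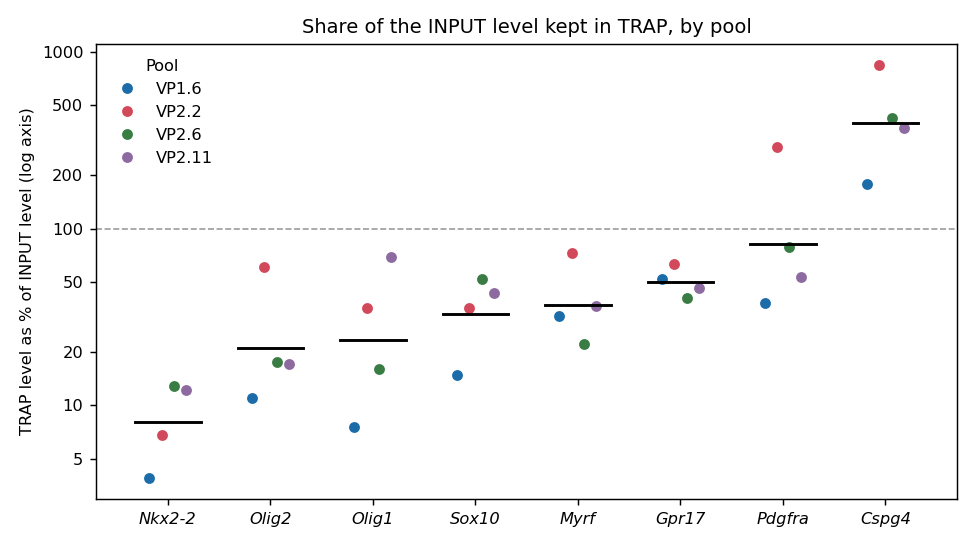
Share of the INPUT level kept in TRAP (percent, log axis) for each lineage gene, with 1 point per pool, a bar at the geometric mean of 4 pools and a dashed line at 100%. Means run from 8.03% for Nkx2-2 to 394% for Cspg4, and the ranges of neighbouring genes overlap along the whole order.

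From the smallest share kept to the largest, the order was Nkx2-2, Olig2, Olig1, Sox10, Myrf, Gpr17, Pdgfra and Cspg4. Neighbours in the middle of this order did not separate beyond their spread over pools. The step from Olig2 to Olig1 was 0.14 ± 1.28 on the log2 scale (SD, n = 4 pools), that from Olig1 to Sox10 0.50 ± 1.04, from Sox10 to Myrf 0.17 ± 1.11, from Myrf to Gpr17 0.42 ± 0.47 and from Gpr17 to Pdgfra 0.73 ± 1.13. Nkx2-2 lay below Olig2 in 4 of 4 pools, by 1.4 ± 1.26. Cspg4 lay above Pdgfra in 4 of 4 pools, by 2.26 ± 0.52 (from 1.55 to 2.80), and above each of the other 6 genes in every pool. Although Pdgfra and Olig2 each varied from pool to pool, their gap was steady, since Olig2 minus Pdgfra was -1.96 ± 0.30. Olig2 minus Cspg4 was as steady, at -4.21 ± 0.36. These steps are descriptions, with no test.

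Pools differed in how far the lineage genes fell. The median share kept by the 8 genes was 21.9% in VP1.6, 61.9% in VP2.2, 30.1% in VP2.6 and 44.8% in VP2.11. VP1.6 gave the lowest share for 6 genes and VP2.2 the highest for 5. The median difference of all genes was between -0.04 and -0.01 in each pool, and that of 12 myelin genes was -2.03, -0.80, -1.95 and -1.90. Thus both gene groups fell least in VP2.2, where the rise of Slc17a6 was the largest, 9.02-fold, against 3.58-fold to 6.88-fold in the others. The spread of all genes was also widest in VP2.2 (interquartile range 1.65, against 1.27 to 1.35, on the log2 scale). The part of these pool differences in the results on single genes was not tested.

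Levels of different genes were compared per kilobase of annotated exon. In INPUT, Olig1 was highest with 15.1 ± 4.48 CPM per kb (SD, n = 4), followed by Sox10 with 8.36 ± 2.32, Olig2 with 3.53 ± 0.637 and Gpr17 with 2.85 ± 0.276. Myrf stood at 1.91 ± 0.307, Nkx2-2 at 1.12 ± 0.198, Pdgfra at 1.07 ± 0.395 and Cspg4, the lowest, at 0.445 ± 0.190 CPM per kb. Ranges over 4 libraries overlapped between Olig1 and Sox10, between Nkx2-2 and Pdgfra and between Pdgfra and Cspg4, and not between the other neighbours in this order. This order rests on deposited levels, which depart from the reads for more genes than Cspg4. The Gpr17 reads of VP2.2 and VP2.6 amount to at least 22.5 and 22.8 CPM in INPUT, where the deposited levels are 14.9 and 15.8 CPM, so the place of Gpr17 below Olig2 is not secure. In TRAP the order changed. By mean, Olig1 (4.04 ± 2.52) and Sox10 (2.78 ± 0.782) still led. Cspg4 came next at 1.67 ± 0.513 CPM per kb, close to Gpr17 at 1.44 ± 0.310. Ranges over 4 libraries overlapped between each of these neighbours, so their order is not secure. Pdgfra (0.926 ± 0.522), Olig2 (0.880 ± 0.674) and Myrf (0.752 ± 0.339) could not be ranked, and Nkx2-2 was last at 0.0939 ± 0.0338 CPM per kb.

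The genes that fell and those that did not also differ in length. Cspg4 and Pdgfra have the longest annotated exon sequence of the 8, 11.9 and 10.0 kb, while Olig1, Olig2, Nkx2-2 and Sox10 have 2.16 to 3.05 kb. Over the 14249 genes tested, longer exon sequence went with a higher TRAP to INPUT difference (Spearman rho 0.412; genes are not independent of one another, so no p is given). With the trend on exon length taken out, Cspg4 still rose, with a log2 fold change of 1.47 (adjusted p = 0.0028 with the block), and the same 6 genes fell. Pdgfra moved to -0.72 (adjusted p = 0.14 with the block). Myrf, at 8.56 kb, moved from -1.43 to -1.82.

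**Figure D3:**
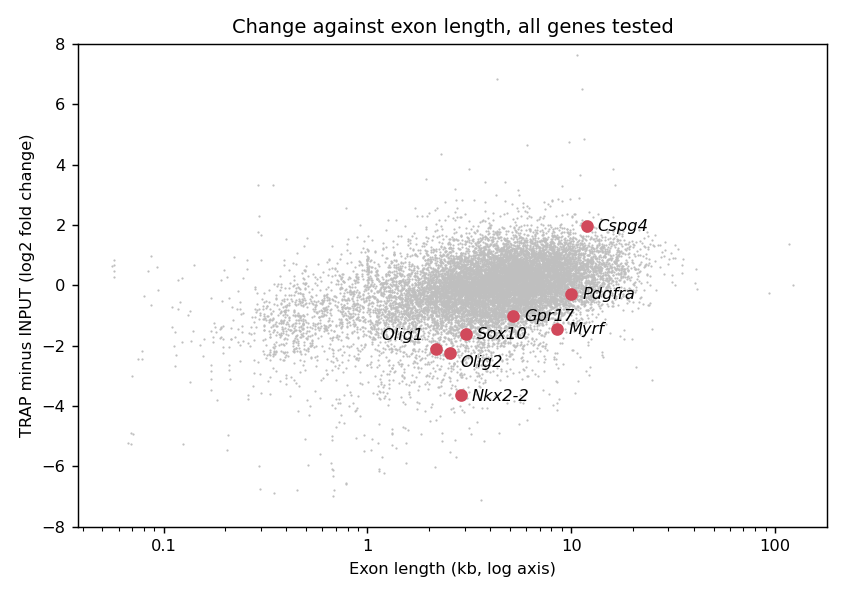
TRAP minus INPUT difference (log2 fold change, mean of 4 pools) against exon length (kb, log axis) for 14249 genes tested, in grey, with the 8 lineage genes in red. Cspg4 and Pdgfra lie among the longest genes, and 1 gene lies outside the plotted range, which ends at a size of 8.

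Other genes of the lineage were grouped by stage. Of 12 further precursor genes tested, 2 rose, 2 fell and 8 were not called, with a median log2 fold change of 0.37. Tnr (1.54, adjusted p = 0.0025 with the block), an extracellular matrix glycoprotein, and Megf11 (1.4, adjusted p = 0.0014), a cell surface protein, rose. Sox6 (-1.28, adjusted p = 0.023), a transcription factor of precursors, and Cacng4 (-1.0, adjusted p = 0.011), a regulator of AMPA receptors, fell. With the length trend taken out, the median of this list was 0.00 and the same numbers were called. Without the block, 1 gene was called lower when VP1.6, VP2.6 or VP2.11 was left out (0 without VP1.6 with the block), and 4 were called higher without VP1.6. Tnr, Sox6, Cacng4 and Megf11 are also expressed by neurons.

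Genes of committed and premyelinating cells were split in the same way, with 2 lower and 1 higher of 7 tested (median -0.12). Bcas1 (-1.36, adjusted p = 0.0012 with the block), a marker of early myelinating cells, and Fyn (-0.76, adjusted p = 0.015), a kinase, fell. Tcf7l2, a transcription factor of differentiating oligodendrocytes that thalamic neurons also use, rose by 1.31 (adjusted p = 0.00048), from 134 ± 18.5 CPM in INPUT to 332 ± 44.9 CPM in TRAP. With the block, 1 gene of this list was called lower when VP1.6 or VP2.6 was left out.

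The regulators and partners of the lineage factors fell into both directions, 5 lower and 7 higher of 15 tested, or 5 higher with the block (median 0.25). Hes5 (-2.11, adjusted p = 0.0038 with the block), a target of Notch, Sox8 (-2.09, adjusted p = 0.00014), a relative of Sox10, Zfp488 (-2.0), Sox9 (-1.95) and Id4 (-1.38) fell. Tcf4 (1.35, adjusted p = 0.00039), a helix-loop-helix partner found in many cell types, and Smarca4 (1.16, adjusted p = 0.0015), a chromatin remodeller, rose, as did Yy1 (0.85), Zeb2 (0.82) and Hdac2 (0.68). With the length trend taken out, 2 of these genes, Smarca4 and Hdac2, remained higher with the block, and Tcf4 had an adjusted p of 0.058. Without VP2.6, 3 genes of this list were called higher in either fit, and with the block 4 were without VP1.6, 3 without VP2.2 and 2 without VP2.11.

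Myelin genes, which SOX10 and MYRF switch on, were lower for 10 of 12 tested and kept a median 28.9% (median log2 fold change -1.79). Opalin (-3.42, adjusted p = 4.2e-07 with the block) and Mog (-2.54, adjusted p = 5.7e-06), both membrane proteins of mature oligodendrocytes, fell most. Mag, the myelin-associated glycoprotein, was the exception, with a change of 0.61 that passed without the block (adjusted p = 0.035) and not with it (adjusted p = 0.072), nor without the block when VP2.2, VP2.6 or VP2.11 was left out. Of the 3 ligands of PDGFRA tested, Pdgfa had -0.54 (adjusted p = 0.015 without and 0.11 with the block), Pdgfb -0.16 and Pdgfc -0.78, and 0 were called with the block (limma), where 1 of them had an unadjusted p below 0.05. Without the block, 0 were called when VP1.6 or VP2.6 was left out.

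**Figure D4:**
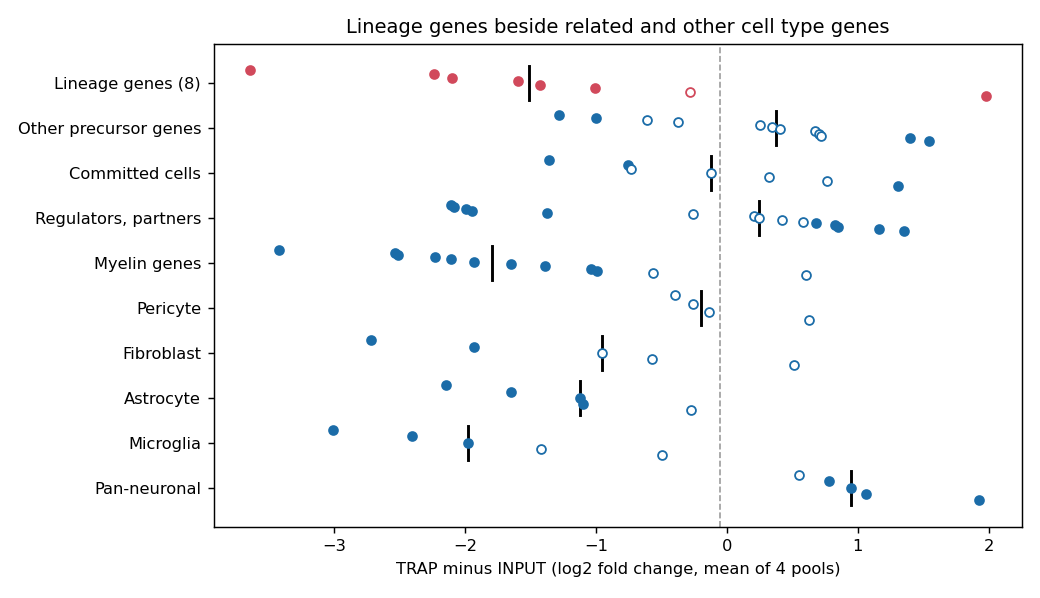
TRAP minus INPUT difference (log2 fold change, mean of 4 pools) for each gene of 10 lists, the 8 lineage genes in red and others in blue. Filled points passed with the pool block, bars mark list medians and the dashed line is the median of all genes (-0.05). The lineage genes and myelin genes have medians of -1.51 and -1.79, and the other precursor genes 0.37.

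Markers of other cell types moved as follows. Pericyte markers, of interest beside Cspg4, gave 0 calls in either direction among 4 tested (limma, with or without the block, with 0 at an unadjusted p below 0.05 in either), with summed levels of 28.9 to 39.7 CPM in TRAP and 37.4 to 44.7 CPM in INPUT. Endothelial markers gave 1 call among 3 tested, Flt1, a VEGF receptor, at 2.37 (adjusted p = 0.0047 with the block), and their sums ranged from 6.85 to 37.5 CPM in TRAP and from 2.33 to 6.53 CPM in INPUT. Fibroblast markers, beside Pdgfra, were lower for 2 of 5, Col1a2 (-2.72) and Col1a1 (-1.93), and summed to 11.4 to 60.8 CPM in TRAP and 43.8 to 97.1 CPM in INPUT. Without the block, 1 fibroblast marker was called lower when VP1.6, VP2.2 or VP2.6 was left out, and 4 without VP2.11; with it, 1 was without VP2.2. The part of these cell types in the Cspg4 and Pdgfra results was not tested. Astrocyte markers were lower for 4 of 5, led by Gja1 (-2.14) and Gfap (-1.65), with a median of -1.12. Microglia markers were lower for 5 of 5, or 3 with the block, led by C1qb (-3.01) and P2ry12 (-2.41), with a median of -1.97, and 3 were lower without VP1.6 or without VP2.6. Pan-neuronal genes were higher for 5 of 5, or 4 with the block, led by Snap25 (1.93) and Syt1 (1.06), with 3 higher without VP2.6 (2 with the block), and with the block 2 without VP1.6 and 3 without VP2.11. Both glutamatergic genes rose, and of 3 GABAergic genes Slc32a1 fell by 1.26 on the log2 scale and 2 were not called, with 2 lower without VP2.2 and, with the block, 0 without VP1.6.

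Over the 8 libraries, the 5 genes whose levels followed the mean standardized level of the lineage genes most closely were Aup1 and Nkain2 (Pearson r 0.994 each), Sowaha, Mrgbp and Rab22a (0.993 each). Their own changes were smaller, with log2 fold changes of -0.90 to -0.60. Of the lineage genes themselves, Olig2 followed that mean most closely (r 0.981), followed by Myrf (0.938), Sox10 (0.913), Olig1 (0.903), Gpr17 (0.894) and Nkx2-2 (0.881), while Pdgfra stood at 0.644 and Cspg4 at -0.647. Each lineage gene is itself part of that mean, which raises its r, so its r is not comparable with those of the 5 other genes. The libraries share 4 pools and fall into 2 fractions, so these r values are descriptions that mostly follow the TRAP to INPUT difference.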

How the data were processed

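TRAP and INPUT RNA of 4 pools was sequenced by the authors. Per the labels and the study's methods, reads were aligned with STAR 2.5.1a (submitters' processing notes) to the Ensembl GRCm38 mouse genome, counted per gene with featureCounts, scaled by TMM in edgeR and modelled with limma (voom, sample quality weights). The authors deposited log2 CPM per gene and library; values of TRAP VP2.11, INPUT VP1.6 and INPUT VP2.11 carry 3 significant digits. The study's text gives 5 samples, of which 4 pools were analysed here. The deposited table also holds the authors' fold changes, limits, p-values and transcript counts, which were not used.

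The table has 14398 entries, and 45 second entries of a gene were dropped. Exon length came from GENCODE M21 (GRCm38). Genes passing 1 CPM in 3 or more libraries were fitted with limma 3.58.1 (lmFit, eBayes with trend; R 4.3.3) with fraction as the term, and again with the pool as a replicate block, and p-values were adjusted over all 14249 genes by the Benjamini-Hochberg method. P-values with the block measure the spread of TRAP minus INPUT differences over 4 pools of mice. Those without it treat the 8 libraries as independent. The share kept is 2 to the power of the TRAP minus INPUT difference within a pool, averaged on the log2 scale. Whole reads could be read only from ratios within a pool, so count models were not used. In VP2.2 and VP2.6, 86.6% and 90.8% of genes had a ratio of whole numbers to within 2.5e-09 on the log2 scale, against 1.45% and 1.05% for libraries of different pools; read intervals are 95% exact binomial. The exon length alternative subtracts a lowess trend (span 0.3) from each pool's differences. Steps were tested on simulated data.

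Both libraries of a pool come from the same homogenate, so the pool number pairs them. Deviations from the group means correlated at -0.75 to -0.49 within a pool and 0.05 to 0.44 between pools, and with such a negative correlation a fit without the pool term understates the error.

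The 8 genes and all lists were chosen with earlier results of these data known. Named from each list were the 2 largest falls and rises called with the block and any gene called against most of its list, plus Slc17a6 and the 5 genes most correlated with the lineage mean. Other genes named (neighbouring Lims2 and Nkx2-2os, and list genes given only as values) were chosen after their values were seen. Of the listed genes, Lhfpl3, Matn4, Xylt1, Bmp4, Nkx6-2, Kcnj8, Abcc9, Anpep, Cldn5 and Tek had no entry under these names in the deposited table. They could not be tested. Kcnj8, Abcc9 and Anpep belong to the pericyte list, and Cldn5 and Tek to the endothelial list.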

Additional observations from a re-analysis of the deposited data

Results flagged for a closer look

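Olig2 in TRAP of VP2.2 stood apart from the other TRAP libraries. It measured 2.26 log2 CPM, where the other 3 measured 0.31 to 0.63, so that the gap took up 0.834 of the group's range, just past Dixon's critical value for 4 samples. It was the 1 value so marked among 16 groups of 4 libraries, where chance gives about 0.8. The mark rests on levels of single libraries, which are less certain here than differences within a pool. Those differences for Olig2 were -0.72 in VP2.2 and -3.18 to -2.51 in the other pools, and the rule was not applied to them. In the same pool Myrf and Gpr17 also kept their highest share, 72.6% and 63.1%.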

How the results depend on the processing

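The 8 genes were refitted under 17 alternatives, 12 planned and 5 added after the data were seen (array weights with the replicate block, and leaving out each pool in the fit with the replicate block). The count of genes called was 6 to 8 in each of these fits, against 7 as reported, and Cspg4 was the 1 called higher in each. With the pool as a replicate block the same 7 were called, 6 lower and 1 higher, so the paired fit changed no call of a lineage gene; over the related lists it ended the calls for Mag, Pdgfa, Chd7, Hdac1, C1qa, Csf1r and Rbfox3. The median share kept was 31.7% with the exon length trend taken out, 35.9% with libraries centred on the median gene, 36.8% after quantile normalization and 38.3% on log2(CPM + 1), and 31.0 to 41.0% leaving out 1 pool. Pdgfra was the 1 gene to change direction, to 0.092 without VP1.6, both without and with the replicate block (adjusted p = 0.88 and 0.91), and it was called at -0.88 without VP2.2 (adjusted p = 0.023). Gpr17 lost its call with the replicate block without VP1.6 (-1.03, adjusted p = 0.056) and without VP2.6 (-0.91, adjusted p = 0.091). Over all alternatives log2 fold changes ran from 1.47 to 2.35 for Cspg4 (adjusted p 0.00013 to 0.016), -1.82 to -1.18 for Myrf, -2.62 to -1.55 for Olig1, -2.74 to -1.73 for Olig2, -1.81 to -1.21 for Sox10 and -3.87 to -1.72 for Nkx2-2, whose smallest value came with log2(CPM + 1), which shrinks low levels. Of 442 counts of calls in the related lists, 380 stayed within 1.5 times and 62 moved. The 380 include counts that were 0 as reported and stayed 0, so they overstate how steady the other counts were. Depth limits Nkx2-2 most, with 2 and 4 TRAP reads behind the ratios of VP2.2 and VP2.6.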
